A study of Mus musculus with 21 samples.

Results

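Inversional joins into the Sα switch region of the mouse IgH locus are described here. They are the deposited junctions on chromosome 12 from 114492 to 114508.5 kb (mm9) whose prey was read on the plus strand, the strand opposite to that of a deletional join. In library 4 of the Iadel group, reads that also stood in libraries 5 or 6 of that group were first left out. This gave 862 inversional joins among 8751 Sα joins, beside 7889 deletional ones, and among 40530 junctions in all. Of the 862, 858 came from the 12 libraries whose cells carry Iα and 4 from the 9 libraries whose cells lack it. Members were chosen by position and strand alone.

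Genomic DNA of CH12F3, a murine B-cell lymphoma line able to switch to IgA in culture, was assayed by CSR-HTGTS-seq. The assay sequences across the join between a fixed bait, here at the 5′ end of Sμ, and whatever DNA the bait end was joined to, the prey. All 21 libraries came from cells stimulated for 72 h with anti-CD40, IL4 and TGF-β, and all 5 genotypes carry a deletion from Sμ to Sα on the non-coding IgH allele. The starting line with that deletion alone is called NCdel (CH12F3NC-delta in the labels, n = 6). Iadel (I-alpha-delta, n = 6) also lacks Iα. i3CBEc (n = 3) has 3 CTCF-binding elements (CBEs) inserted, in the convergent orientation by its label, and keeps Iα. Iadel-i3CBEc (Ialpha-delta-i3CBEc, n = 3) has the 3 CBEs downstream of Cγ2a in cells without Iα. i3CBEc-3CBEdel (i3CBEc-3'CBEs-delta, n = 3) has the insertion, keeps Iα and lacks the 3'CBEs, a CTCF-site cluster that ends the locus on the Cα side. The labels do not say whether a genotype is 1 clone, nor whether the libraries of a group came from separate cultures, so p-values measure the spread between these libraries, which may be technical.

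In class switch recombination the deaminase AID lesions switch regions, long repeats rich in the motif AGCT, and a break in Sμ is joined to a break in a downstream switch region. A deletional join drops the DNA between both breaks and gives a chromosome from which the new isotype can be expressed, whereas an inversional join turns that DNA round and gives no switched transcript. Iα holds the promoter from which the germline transcript of Sα starts, and cohesin-driven loop extrusion, which CTCF bound at CBEs can halt, is held to bring the 2 switch regions together. The broken ends are closed by end joining, with direct (blunt) fusion, with a few bases shared by both ends (microhomology), or with bases inserted between them. Here shared bases are those that the deposited bait and prey alignments both take, and these can hold a mismatch to the bait.

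The next sequences show what such a join looks like, read from the bait into the prey. The bait end itself, as the majority base over the reads of NCdel at chr12:114664812-114664911 (mm9, minus strand), holds 2 AGCT motifs, here in capitals.
Bait: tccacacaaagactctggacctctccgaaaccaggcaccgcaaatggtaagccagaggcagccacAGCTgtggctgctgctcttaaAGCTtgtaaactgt
The NCdel join with the longest overlap of bait and prey alignments, 6 bases, lay at 114500993 on the plus strand, in library 5. The overlap is in capitals, after up to 30 bases of bait and before 60 of prey, and 5 of its 6 bases match the bait.
Overlap: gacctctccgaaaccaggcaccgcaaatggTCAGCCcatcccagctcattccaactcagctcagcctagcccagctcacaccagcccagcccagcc
A blunt NCdel join from the same library lay at 114500969. The capitals mark the last bait base and the first prey base.
Blunt: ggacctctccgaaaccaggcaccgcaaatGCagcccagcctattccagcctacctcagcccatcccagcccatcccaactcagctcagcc
The NCdel join with the longest insertion, 20 bases in capitals, lay at 114501286 in library 6.
Insertion: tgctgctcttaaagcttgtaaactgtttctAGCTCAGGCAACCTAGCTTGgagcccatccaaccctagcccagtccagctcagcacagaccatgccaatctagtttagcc
The 20 inserted bases were found in the Sα consensus at 114501250 to 114501269 on the same strand as the prey, 16 bases before the prey began.

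An inversional and a deletional join with prey ends 1 base apart show the 2 orientations at 1 place. The inversional one, at 114501380, is at the most used inversional position of NCdel, with 3 joins, and the deletional one, at 114501381, is the nearest of that line. Both come from library 2, and the capitals mark the shared bases.
Inversional: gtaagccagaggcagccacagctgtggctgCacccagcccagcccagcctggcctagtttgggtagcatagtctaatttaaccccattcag
Deletional: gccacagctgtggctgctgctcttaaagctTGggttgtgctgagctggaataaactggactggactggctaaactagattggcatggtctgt
The inversional prey ran on from 114501380 to 114501518 toward Sμ on the plus strand, and the deletional prey from 114501381 down to 114500974 on the minus strand. Over all prey bases of the 12 Iα-bearing libraries, C made up 37.6% and G 16.4% in inversional joins, against 16.7% and 37.5% in deletional joins, as follows from reading opposite strands of 1 region. From 114496 to 114504 kb the reads covered 7191 of 8000 bases at least 5 times. Their consensus held 142 copies of AGCT, the motif that switch regions are rich in, with no region outside switch regions counted for comparison. A stretch of it in the kilobase with the most inversional joins, chr12:114501480-114501639 (mm9, plus strand), held 9 AGCT, 68 inversional joins and 477 deletional ones. It was placed around the most used inversional position, 114501508, with 6 joins, so its inversional count is raised by that choice.
Sα: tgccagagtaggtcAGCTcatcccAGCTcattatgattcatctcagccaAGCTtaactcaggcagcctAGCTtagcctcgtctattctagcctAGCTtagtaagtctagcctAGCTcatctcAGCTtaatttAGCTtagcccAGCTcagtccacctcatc

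Libraries held 1180 to 3513 junctions and came from 8 sequencing runs. NCdel libraries 1 to 3, Iadel 4 to 6 and all Iadel-i3CBEc libraries were read in run 490. Neither i3CBEc nor i3CBEc-3CBEdel shared a run with NCdel or with the other group, so the run cannot be told apart from the genotype in comparisons with them. No molecular identifiers are given, so reads may repeat a molecule, and intervals and limits given here cover counting error only. Iα-bearing libraries of 1 group and 1 run shared a median of 9.80% of their deletional Sα joins (same prey position and bait end, as a share of the smaller library), and up to 13.1%. The NCdel pairs among them shared 11.5%, 11.1%, 9.80% and 13.1%, but the i3CBEc pairs only 1.75%, 1.09% and 1.63%. The higher sharing was thus seen in NCdel alone, whose libraries of 1 run may not be independent. Its cause was not tested. The median was 2.83% between runs of 1 group and 2.72% between groups. Inversional joins shared in this way numbered 0 to 3 per pair of libraries. As a share of the smaller library, the NCdel pairs of 1 run had 9.09%, 8.33%, 0% and 10.7%. The i3CBEc pairs had 0%, 1.27% and 2.53%. The median was 0% between runs of 1 group (up to 8.33%) and 0% between groups (up to 7.14%). With so few joins these shares are coarse, and the caution on NCdel libraries of 1 run holds for inversional joins too.

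The 6 Iadel libraries, without Iα, held 2 inversional Sα joins in all, and in cells with Iα their share of all junctions was 6.59-fold higher in i3CBEc and 7.49-fold higher in i3CBEc-3CBEdel than in NCdel. In NCdel the 6 libraries held 12, 11, 20, 28, 31 and 28 inversional joins, or 0.739%, 0.585%, 1.06%, 1.16%, 1.88% and 1.32% of all junctions, a mean of 1.13% ± 0.459 (SD, n = 6). In i3CBEc there were 111, 95 and 79, or 7.98%, 7.56% and 6.69%, a mean of 7.41% ± 0.655 (SD, n = 3). In i3CBEc-3CBEdel there were 155, 118 and 170, or 9.74%, 5.97% and 9.59%, a mean of 8.43% ± 2.14 (SD, n = 3). Each library of the 2 insertion groups lay above each NCdel library. The difference from NCdel was 6.29 points for i3CBEc and 7.31 points for i3CBEc-3CBEdel (adjusted p = 0.0238 each, two-sided exact permutation test, Benjamini-Hochberg over 6 contrasts; 0.0119 is the smallest unadjusted p that 3 against 6 libraries allow). Between the 2 insertion groups the difference was 1.02 points, within their overlap (adjusted p = 0.48, exact permutation test).

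In Iadel the 2 inversional joins were both in library 3, which is 0.0649% of its 3083 junctions (95% Wilson interval 0.0178% to 0.236%). The other 5 Iadel libraries had none, which allows shares of up to 0.0854% to 0.228%. The Iadel mean, 0.0108% ± 0.0265 (SD, n = 6), differed from NCdel by -1.11 points, with no overlap (adjusted p = 0.0130, two-sided exact permutation test, the smallest that 6 against 6 allow being 0.00216 before adjustment). Within run 490 the difference was -0.795 points over 3 libraries each, where no p below 0.1 can be reached. Iadel-i3CBEc had 0, 2 and 0 inversional joins, a mean of 0.0423% ± 0.0733 (SD, n = 3), and overlapped with Iadel (adjusted p = 0.75, exact permutation test). All 3 Iadel-i3CBEc libraries lay below all 3 of i3CBEc, with a difference in means of -7.37 points and a p of 0.1 (exact permutation test), the smallest that 3 against 3 allow, and 0.15 after adjustment.

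**Figure D1:**
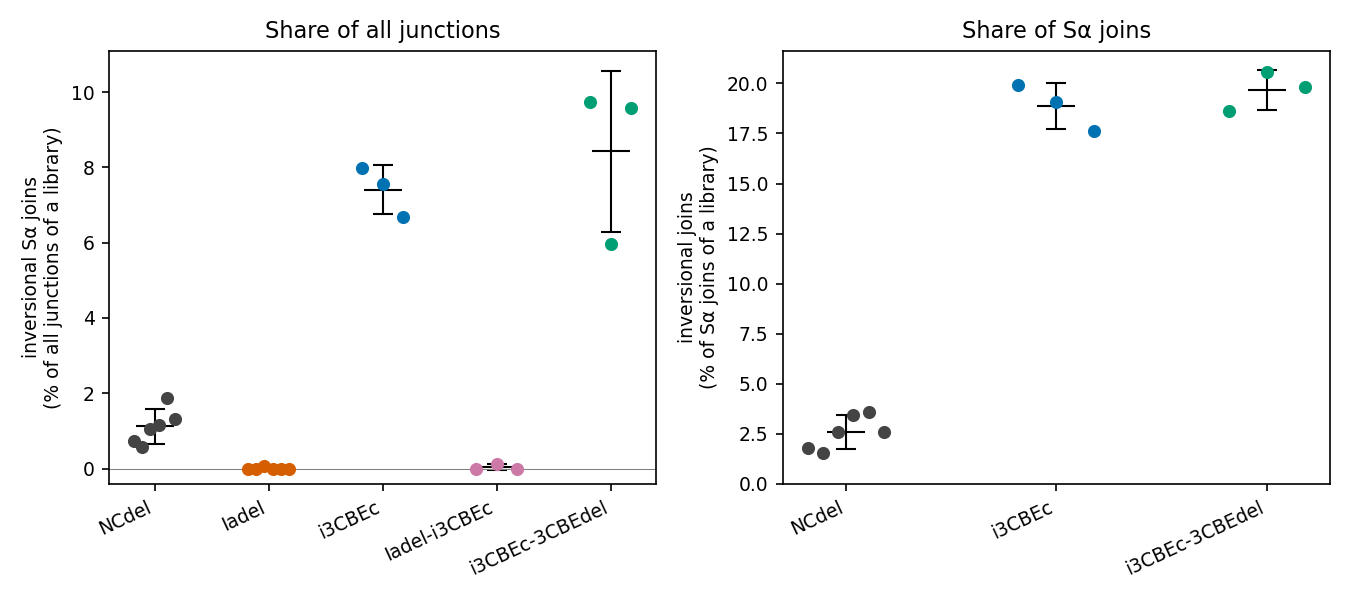
Inversional Sα joins per library as a percent of all junctions (left, 5 groups) and of Sα joins (right, the 3 Iα-bearing groups); points are libraries, the long bars means and the short bars 1 SD. On the right the 6 NCdel libraries lie between 1.51% and 3.60%, and the 6 libraries with the insertion between 17.6% and 20.6%.

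The 4 inversional joins of Iα-deleted cells were placed as follows. The 2 of Iadel library 3 lay at 114501231, with 3 shared bases (GCT), and at 114501500, blunt, both within the AGCT-rich 7 kb from 114497 to 114504 kb, called the core below. The 2 of Iadel-i3CBEc library 2 lay outside it, at 114495295, with 2 shared bases (GC), and at 114493210, with 1 inserted base. The join at 114493210 had the longest prey of the 4, 201 bases from 114493210 to 114493410 on the plus strand, and is shown with its inserted base in capitals.
Iα-deleted: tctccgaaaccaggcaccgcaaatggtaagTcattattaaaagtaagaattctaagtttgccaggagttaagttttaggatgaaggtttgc
Deletional Sα joins numbered 15 in Iadel and 14 in Iadel-i3CBEc, so the inversional ones made up 2 of 17 (11.8%, 95% Wilson interval 3.29% to 34.3%) and 2 of 16 (12.5%, 3.50% to 36.0%). Both intervals hold the levels of i3CBEc and i3CBEc-3CBEdel given next, and both begin just above the NCdel mean. Of the 14 deletional joins of Iadel-i3CBEc, however, 13 had inserted bases and 11 lay in the kilobase from 114500 kb. Their median prey was 27 bases, and their median positions by library were 114500947, 114500946 and 114500947. In Iadel, 4 of 15 had inserted bases and 9 lay in that kilobase, with a median prey of 63 bases. In NCdel the deletional prey medians averaged 129 bases. Whether these few joins are ordinary Sα joins was not tested.

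Among Sα joins, the inversional share was several times as high in both insertion groups as in NCdel. It was 1.79%, 1.51%, 2.57%, 3.41%, 3.60% and 2.57% in the NCdel libraries, a mean of 2.57% ± 0.837 (SD, n = 6). In i3CBEc it was 19.9%, 19.1% and 17.6%, a mean of 18.9% ± 1.16 (SD, n = 3), and in i3CBEc-3CBEdel it was 18.6%, 20.6% and 19.8%, a mean of 19.7% ± 0.990 (SD, n = 3). The highest NCdel library thus stayed well below the lowest of the insertion groups. The differences from NCdel were 16.3 and 17.1 points, or 7.34-fold and 7.65-fold (adjusted p = 0.0179 each, two-sided exact permutation test over 3 contrasts). The 2 insertion groups overlapped and differed by 0.807 points (adjusted p = 0.5, exact permutation test).

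Counted over all joins, 130 of 4953 Sα joins were inversional in NCdel, 285 of 1503 in i3CBEc and 443 of 2262 in i3CBEc-3CBEdel. Of the NCdel runs, run 490 averaged 1.95%, run 371 stood at 3.41% and run 451 averaged 3.08%. The 3 i3CBEc libraries are of 1 run, and those of i3CBEc-3CBEdel are of 3 runs, which gave 18.6%, 20.6% and 19.8%. With the mean of each run counted as 1 value, an alternative added after the data were seen, the differences from NCdel stayed at 16.1 and 16.9 points, but so few values allow no p below the threshold.

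Deletional Sα joins were not higher in the insertion groups. They made up 42.1% ± 6.94 (SD, n = 6) of all junctions in NCdel, 31.8% ± 0.456 (SD, n = 3) in i3CBEc and 34.8% ± 10.4 (SD, n = 3) in i3CBEc-3CBEdel. The i3CBEc libraries lay below all NCdel libraries, with a difference in means of -10.3 points, which was not past the threshold (adjusted p = 0.0952, exact permutation test over 24 comparisons added after the data were seen). The i3CBEc-3CBEdel libraries overlapped with NCdel (adjusted p = 0.321, exact permutation test).

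The strand of joins elsewhere in the same libraries gives a frame for these shares. On other chromosomes, where a bait end meets ends with no fixed orientation, plus-strand joins made up 50.5% ± 2.46 in NCdel (SD, n = 6), 49.3% ± 2.48 in i3CBEc (SD, n = 3) and 55.4% ± 3.79 in i3CBEc-3CBEdel (SD, n = 3), and no pair of these groups differed past the threshold. In the 12 Iα-bearing libraries the inversional share of Sα, a mean of 10.9%, was lower than that on other chromosomes, by a difference of -40.5 points (lower in 12 of 12 libraries, adjusted p = 0.000977, two-sided exact sign-flip permutation test over 2 comparisons). It was also lower, by a difference of -6.78 points, than in the 10 kb downstream of the bait, here called the Sμ unit, where the mean was 17.7% (lower in 11 of 12 libraries, adjusted p = 0.000977, the same exact test).

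**Figure D2:**
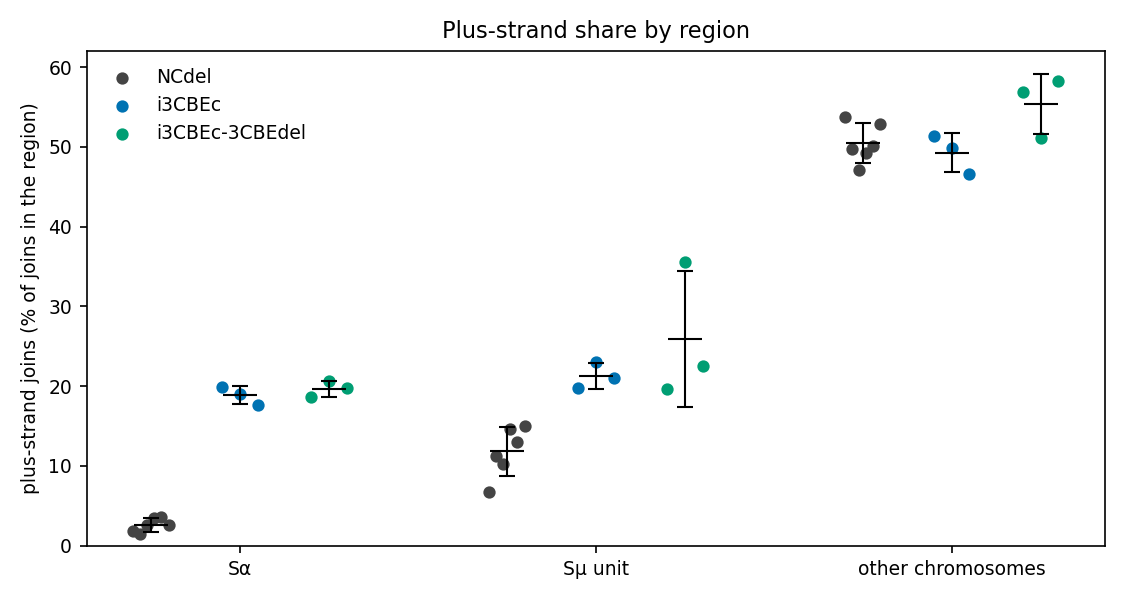
Plus-strand joins as a percent of the joins of a region, by library, for Sα, the Sμ unit (10 kb downstream of the bait) and other chromosomes; points are libraries, bars mean and SD. Sα and the Sμ unit lie apart in NCdel (2.57% and 11.8%) and close together in i3CBEc (18.9% and 21.3%), while other chromosomes lie near 50% in NCdel and i3CBEc and at 55.4% in i3CBEc-3CBEdel.

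The Sμ unit moved in the same direction as Sα, but by less. Its inversional share was 11.8% ± 3.09 in NCdel (SD, n = 6), 21.3% ± 1.58 in i3CBEc (SD, n = 3) and 25.9% ± 8.53 in i3CBEc-3CBEdel (SD, n = 3), above NCdel in each library of both insertion groups (adjusted p = 0.0260 each, exact permutation test, added comparisons). In i3CBEc-3CBEdel library 2 it was 35.6%, against 19.6% and 22.5% in the other two. The log2 ratio of the Sα to the Sμ share rose from a mean of -2.22 in NCdel to -0.17 in i3CBEc and -0.35 in i3CBEc-3CBEdel, differences of 2.05 and 1.87 on the log2 scale with no overlap (adjusted p = 0.0260 each, exact permutation test). As a difference in points, Sα minus Sμ rose by 6.85 in i3CBEc (adjusted p = 0.0260, exact permutation test). This call was lost without NCdel library 2, 4 or 5 (adjusted p = 0.0779, 0.0714 and 0.0779, exact permutation test) or without any i3CBEc library. For i3CBEc-3CBEdel the difference was 3.04 points (adjusted p = 0.524, exact permutation test).

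Inversional joins lay nearer to Sμ within Sα than deletional ones, in every Iα-bearing library. The median inversional position of the NCdel libraries was 114501224, 114501105, 114501242, 114501148, 114500946 and 114500998, and their deletional medians ran from 114500778 to 114500944. In i3CBEc the inversional medians were 114501317, 114501373 and 114501400, against 114500595 to 114500628 for deletional joins. In i3CBEc-3CBEdel they were 114501643, 114501445.5 and 114501403, against 114500267 to 114500849. The within-library shift averaged 560 bases toward Sμ (higher in 12 of 12 libraries, adjusted p = 0.00537, two-sided exact sign-flip permutation test over 11 measures; 0.000488 is the smallest unadjusted p that 12 libraries allow).

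The shift was 248 ± 114 bases in NCdel (SD, n = 6; 73 to 378.5), 748 ± 58.0 in i3CBEc (SD, n = 3) and 996 ± 390 in i3CBEc-3CBEdel (SD, n = 3), and neither insertion group overlapped with NCdel. In NCdel alone it was seen in 6 of 6 libraries (adjusted p = 0.172, exact sign-flip permutation test), where 0.03125 is the smallest unadjusted p. The differences in shift between NCdel and the insertion groups, 500 and 747 bases, did not pass over 33 added comparisons (adjusted p = 0.196 each, exact permutation test). Both had an unadjusted p of 0.0119, the smallest that 3 against 6 libraries allow. These 2 differences alone could thus not pass over 33 comparisons, whatever their size. The inversional median itself lay 253 bases nearer to Sμ in i3CBEc than in NCdel and 387 bases nearer in i3CBEc-3CBEdel, without overlap. Their unadjusted p was 0.0238 and 0.0119 and their adjusted p 0.393 each (exact permutation test over 33 comparisons, with the same limit).

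**Figure D3:**
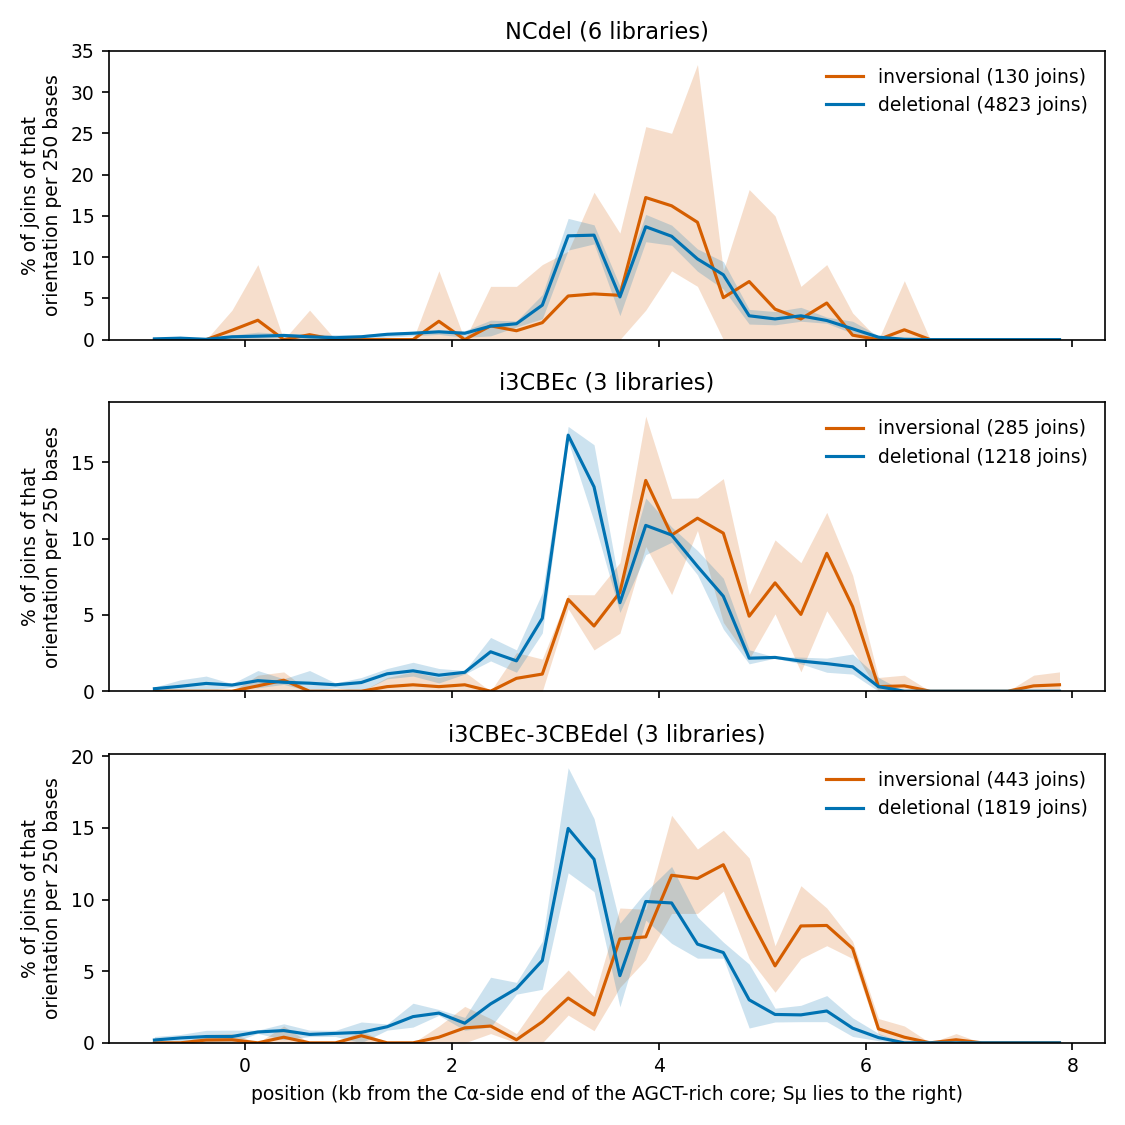
Percent of the joins of an orientation per 250 bases of Sα, by distance in kb from the Cα-side end of the core, with Sμ to the right; lines are means over libraries and bands run from the lowest to the highest library. The deletional curves peak near 3 kb and near 4 kb, whereas the inversional ones carry less at the peak near 3 kb and, in both insertion groups, more beyond 5 kb.

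Nearly all inversional joins lay in the core, 849 of 858, as did 7763 of 7860 deletional ones. The 3 bins of 1 kb with the most inversional joins held 791 of the 858 (92.2%), 219 in the bin from 114500 kb, 354 in that from 114501 kb and 218 in that from 114502 kb. Deletional joins were fewer along this direction, with 2127, 1586 and 435 in NCdel, 572, 327 and 92 in i3CBEc, and 772, 455 and 128 in i3CBEc-3CBEdel.

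Within each of the 3 bins the inversional share was higher in both insertion groups than in NCdel, without overlap. In the bin from 114500 kb, toward Cα, it was 2.02% ± 0.908 in NCdel (SD, n = 6), 13.2% ± 1.31 in i3CBEc (SD, n = 3) and 10.4% ± 3.15 in i3CBEc-3CBEdel (SD, n = 3). In the middle bin, from 114501 kb, the means were 3.13% ± 0.717, 24.2% ± 0.925 and 30.2% ± 5.35 (SD, the same n). In the bin from 114502 kb, toward Sμ, they were 3.37% ± 2.32, 45.1% ± 7.0 and 49.4% ± 7.09 (SD, the same n). Each comparison with NCdel had an adjusted p of 0.0260 (exact permutation test, added comparisons). The bins were chosen by inversional joins over the 12 libraries, and only 130 of these 858 came from NCdel. That choice favours bins where the insertion groups are high, and the p-values do not allow for it. In the last of these bins the i3CBEc libraries held 33 of 65, 25 of 53 and 19 of 51 joins as inversional, and those of i3CBEc-3CBEdel 50 of 87, 33 of 71 and 42 of 95. Inversional and deletional joins were thus about as frequent there.

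In points, the gradient along Sα differed between NCdel and the insertion groups, but as a ratio it did not pass the test. Both bins used here were chosen by their inversional joins, most of them from the insertion groups, and the tests do not allow for that. The share in the bin from 114502 kb exceeded that from 114500 kb by 1.36 ± 1.96 points in NCdel (SD, n = 6; -1.32 to 4.58), by 31.9 ± 5.75 in i3CBEc (SD, n = 3; 25.4 to 36.3) and by 39.0 ± 10.1 in i3CBEc-3CBEdel (SD, n = 3; 32.8 to 50.6). The groups with the insertion lay 30.5 and 37.6 points above NCdel, with no overlap (adjusted p = 0.0179 each, two-sided exact permutation test over 3 added contrasts). As the ratio of the 2 shares, the NCdel libraries stood at 0, 1.51, 3.74, 1.91, 1.35 and 1.43, those of i3CBEc at 3.50, 3.58 and 3.13, and those of i3CBEc-3CBEdel at 8.35, 3.59 and 3.89. NCdel library 3 lay above all 3 of i3CBEc and 1 of i3CBEc-3CBEdel, so the groups overlapped, and neither difference from NCdel passed (adjusted p = 0.1 and 0.0714, exact permutation test over 3 added contrasts). Without NCdel library 3 both did (adjusted p = 0.0268 each, exact permutation test). Over the 12 libraries the excess averaged 18.4 points (above 0 in 11 of 12, p = 0.00244, exact sign-flip permutation test). In NCdel it was above 0 in 5 of 6 libraries, with only 0 to 4 inversional joins per library in the bin from 114502 kb.

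**Figure D4:**
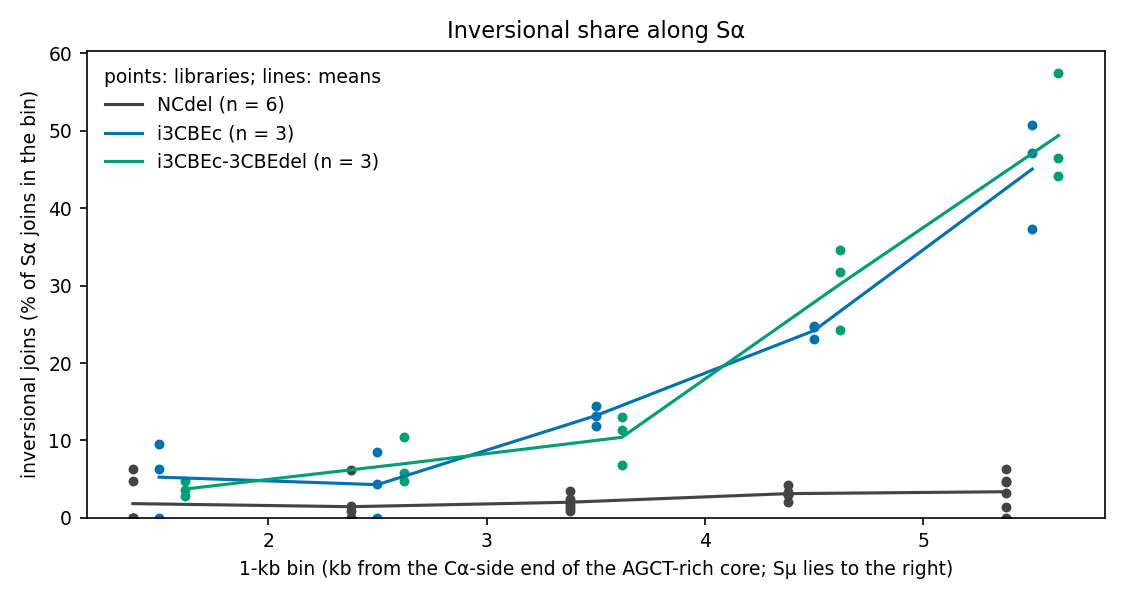
Inversional share of Sα joins in the 1-kb bins of the core with the most joins, by distance in kb from its Cα-side end, with Sμ to the right; points are libraries and lines join group means. In the last 3 bins the NCdel means run from 2.02% to 3.37%, those of i3CBEc from 13.2% to 45.1% and those of i3CBEc-3CBEdel from 10.4% to 49.4%.

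Inversional joins were spread over many positions. The 858 joins fell on 696 positions, of which 558 were used once, and 20 had at least 3 joins from at least 2 libraries. The 7860 deletional joins fell on 2877 positions, and the most used of these had 24 joins. Position 114502811 had 4 inversional joins from 4 libraries, 1 of i3CBEc and 3 of i3CBEc-3CBEdel. Positions 114500845, 114500955, 114501048, 114501223 and 114501245 had 3 joins from 3 libraries each, and 114500945, 114501039 and 114501188 had 3 joins from 2 libraries each. Of prey words of 40 bases that NCdel deletional reads also held, 98.8% to 99.8% lay at the same position in the inversional reads, by group.

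The most used position was 114501508, with 6 inversional joins, 4 of them in i3CBEc-3CBEdel library 3. Of these 6 joins, 5 had 8 to 24 inserted bases. In the 4 with more than 10, the inserted bases were found in the Sα consensus ending at 114501526 on the same strand, so that the reads held bases of the 19 from 114501508 to 114501526 a second time. Of 263 Sα reads aligned across this place, 14, from 3 libraries, had 19 more bases than mm9 in their alignment. Whether this copy number sets the position given for these joins was not tested. The remaining join, from i3CBEc-3CBEdel library 1, shares 1 base with the bait, in capitals (chosen after its values were seen).
Position 114501508: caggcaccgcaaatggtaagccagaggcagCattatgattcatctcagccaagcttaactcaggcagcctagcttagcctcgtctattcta

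Blunt joins, shared bases and inserted bases were all found in both orientations. Of 858 inversional joins in Iα-bearing cells, 488 had at least 1 shared base, 195 were blunt and 175 had inserted bases. Of 7860 deletional joins, these were 4392, 1719 and 1749. Per library, joins with microhomology averaged 60.9% of inversional and 55.8% of deletional joins (higher in 7 of 12 libraries), and blunt joins 23.2% and 21.8%. Neither difference was past the threshold (adjusted p = 0.101 and 0.585, exact sign-flip permutation test over 11 measures). Mean microhomology, over joins without inserted bases, was 1.80 bases in inversional and 1.68 in deletional joins (adjusted p = 0.484, the same exact test). Joins with 4 or more shared bases made up 13.0% and 10.9% (adjusted p = 0.585, exact test), and the longest microhomology was 10 bases in both. The overlap held a mismatch to the bait in 7 of 488 inversional (1.43%) and 53 of 4392 deletional joins (1.21%), all with an overlap of at least 4 bases.

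Inserted bases were found in a mean of 15.9% of inversional and 22.4% of deletional joins, a difference of -6.44 points (lower in 9 of 12 libraries). The difference was not past the threshold (p = 0.0210, adjusted p = 0.101, exact sign-flip permutation test). NCdel libraries 1 to 6 had 0%, 0%, 10.0%, 14.3%, 16.1% and 21.4% of inversional joins with inserted bases, each below its own deletional share of 19.3% to 23.5% (p = 0.03125, exact sign-flip permutation test, adjusted p = 0.172), but on 11 to 31 inversional joins a library. The i3CBEc libraries had 18.9%, 22.1% and 25.3%, and those of i3CBEc-3CBEdel 23.9%, 14.4% and 24.7%, on both sides of their deletional shares. With prey of at least 50 bases, the difference over 12 libraries was -6.73 points and passed (adjusted p = 0.0322, exact sign-flip permutation test). Leaving out 1 library at a time, its adjusted p ran from 0.0716 to 0.201.

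Mean inserted length was 2.70 bases in inversional and 3.79 in deletional joins, over the 10 libraries with an inserted inversional join and over all 12, and the mean difference within the 10 was -1.01 bases (adjusted p = 0.101, exact sign-flip permutation test). Insertions of more than 10 bases were in 9 of 858 inversional joins (1.05%) and 164 of 7860 deletional ones (2.09%). Of the 9, 5 were found whole in the Sα consensus on the strand of the prey, 4 of them at 114501508, 1 on the other strand and 2 in Sμ reads or the bait, while 1 was not found. Of the 164, 34 were found in Sα on the strand of the prey, none on the other, 72 in Sμ reads or the bait, and 58 were not found. Single inserted bases numbered 86 in inversional joins, 48 A, 33 T, 4 G and 1 C, so A or T made up 94.2%. Of 784 in deletional joins A or T made up 87.5%.

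**Figure D5:**
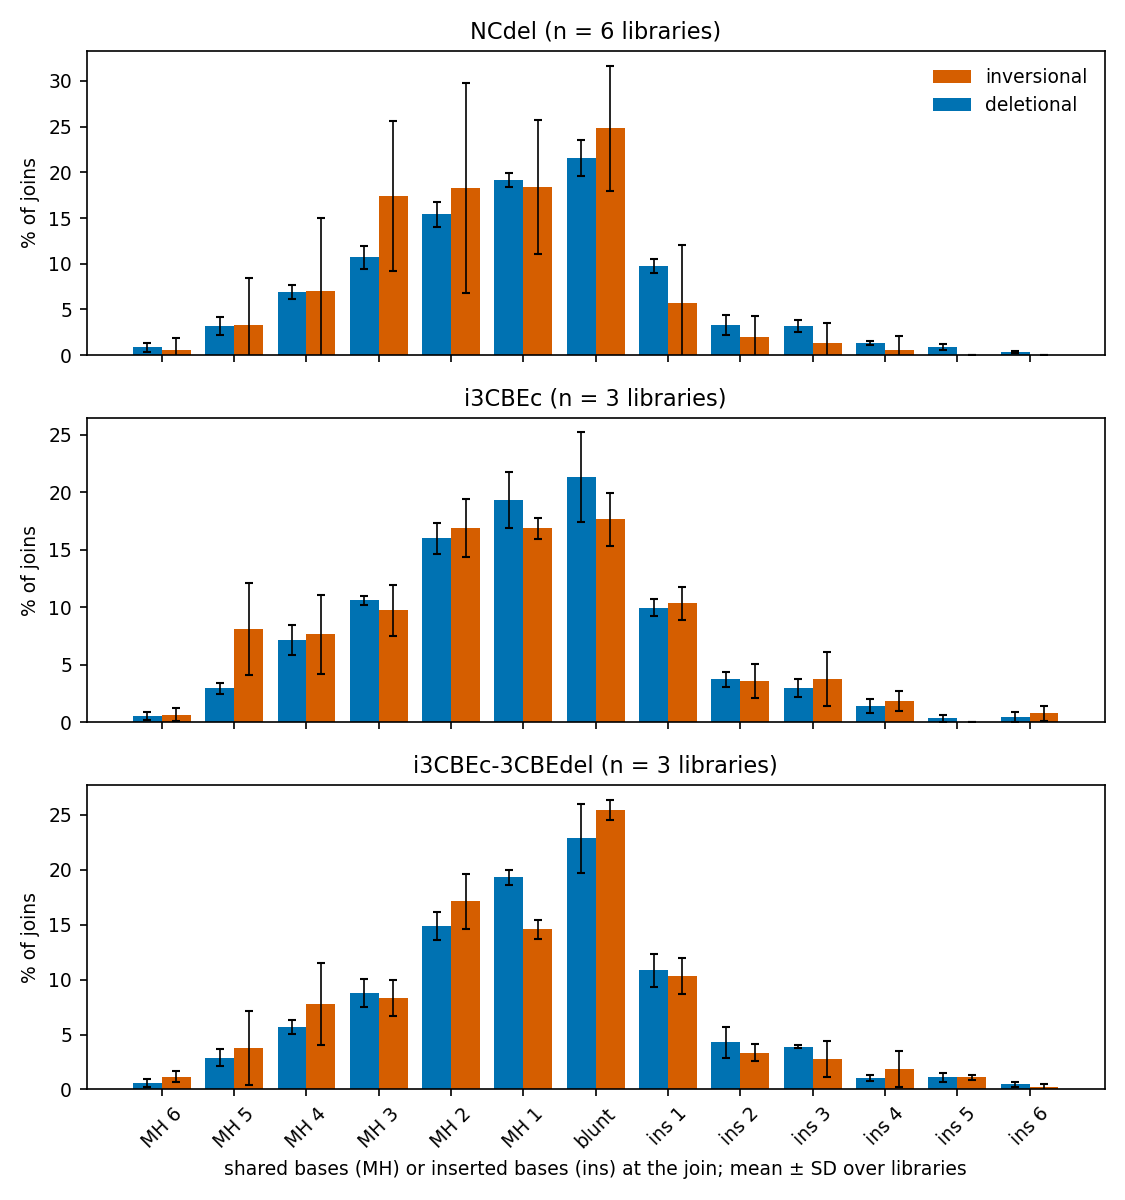
Percent of joins by bases shared (MH) or inserted (ins) at the join, from 6 shared to 6 inserted, for deletional and inversional Sα joins; bars are means over libraries and error bars 1 SD. Blunt joins and joins with 1 or 2 shared bases are the most frequent classes in both orientations, and the bars of the 130 inversional NCdel joins have wide errors.

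The shared bases followed the strand of the prey. In inversional joins, C made up 38.9% of 1235 shared bases, and the most frequent words were C in 61 joins, CA in 35, AG in 31, T in 29 and GC in 28. The longer words CAG, CAGC and CAGCT came 23, 19 and 17 times. In deletional joins G made up 39.4% of 10298 shared bases, and the words GCTG and GCT came in 224 and 190 of 4392 joins.

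The bait side of the joins showed no difference past the threshold. Bait end 114664846, the edge of the AGCT at 114664843 to 114664846, was the most used in both, in 63 of 858 inversional (7.34%) and 457 of 7860 deletional joins (5.81%). The median bait end was 114664844.5 and 114664845, and its mean within-library difference was -0.75 bases (adjusted p = 0.825, exact sign-flip permutation test). An AGCT (either strand, since the word is its own complement) stood in the first 10 prey bases of 25.7% of 763 inversional joins with at least 50 prey bases and in bases 41 to 50 of 24.6%. In 6982 such deletional joins these were 25.5% and 22.9%, with the genotypes pooled. Per library, with prey of any length, the first 10 bases held AGCT in a mean of 23.2% of inversional and 25.7% of deletional joins. The difference was not past the threshold (adjusted p = 0.585, exact sign-flip permutation test). In NCdel the means were 18.7% and 26.5% (lower in 5 of 6 libraries). In i3CBEc they were 28.6% and 24.8%, and in i3CBEc-3CBEdel 26.6% and 24.9% (higher in 2 of 3 libraries each).

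No measure of join structure differed past the threshold between the genotypes. Over 33 comparisons of inversional joins (11 measures, 3 contrasts), the smallest adjusted p was 0.393, and 2 had an unadjusted p under 0.05, both for the median position given above. These exact permutation tests allow no unadjusted p under 0.0119 for 3 against 6 libraries and none under 0.1 for 3 against 3. The median position of i3CBEc-3CBEdel against NCdel was at 0.0119 and still had 0.393 after adjustment. A difference in 1 or a few measures could thus not pass, so these tests do not show that the genotypes are alike. Mean microhomology of inversional joins was 1.73 ± 0.400 bases in NCdel (SD, n = 6), 2.04 ± 0.135 in i3CBEc (SD, n = 3) and 1.71 ± 0.347 in i3CBEc-3CBEdel (SD, n = 3). The share with inserted bases was 10.3% ± 8.79, 22.1% ± 3.20 and 21.0% ± 5.72 (SD, the same n), 11.8 and 10.7 points above NCdel (adjusted p = 0.471 each, exact permutation test). Blunt inversional joins made up 24.8% ± 6.83, 17.6% ± 2.33 and 25.4% ± 0.946 (SD, the same n). Median aligned prey length of inversional joins was 128 ± 41.7, 101 ± 8.08 and 123 ± 44.2 bases (SD, the same n), a property of the reads. In i3CBEc-3CBEdel library 3 no deposited read was longer than 256 bases.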

How the data were processed

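The authors' deposited junction tables hold 1 line per kept junction, with positions and microhomology or insertion lengths in bases and no normalisation, per the file headers. Bowtie2 (version not stated) and the mm9 build are named in the submitters' processing notes, and filter settings are not given in the sources used here. Members, regions and lists were chosen with earlier results of these data known. From library 4 of Iadel, 3075 of 4614 reads that also stood in libraries 5 or 6 were removed. In the insertion groups, positions on the Sμ side of 114526803, bait ends included, were shifted back by 99 bases, and Sα needed no shift. The deposited MH column equals the prey start minus the bait end minus 1 in the read, so a negative value is microhomology (up to 10 bases, the overlap of both alignments, mismatches included) and a positive one an insertion (up to 30). No mm9 annotation or genome was used, and sequences come from the deposited reads.

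Shares were computed per library and compared with two-sided exact permutation tests of the absolute difference in means. Inversional and deletional joins of a library were compared by exact sign flips, and p-values adjusted by Benjamini-Hochberg with a threshold of 0.05. Intervals are 95% Wilson intervals, and the limit of a count of 0 is 3 joins. Named bins are the 3 of 1 kb with the most inversional joins, named positions those with at least 3 joins in 2 libraries (10 at most), and printed joins the extremes of NCdel by prey length, microhomology and insertion. Alternatives left out libraries, counted repeats once, kept the core or prey of at least 50 bases, changed the denominator, the run or the groups, or blocked by replicate number. The bin ratio and leaving out overlaps with a mismatch were added after seeing the data. The code was tested on simulated data. Python 3.11.15, pandas 2.3.3, numpy 2.4.6, scipy 1.17.1 and matplotlib 3.10.9 were used.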

Additional observations from a re-analysis of the deposited data

Results flagged for a closer look

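In Iadel the 0.0649% of library 3 stood apart from the other 5 libraries, all at 0, by the gap between the highest sample and the rest. Of 19 groups of values looked at in this way it was the only one. With the other 5 libraries at 0, any join in 1 library raises this flag, so the usual chance rate of about 1 in 20 does not apply. The flag rests on 2 joins.

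Several differences changed in size between NCdel and a group with the inserted CBEs. The Sα minus Sμ difference in inversional share was 6.85 points higher in i3CBEc, and the log2 ratio of the 2 shares was 2.05 higher in i3CBEc and 1.87 higher in i3CBEc-3CBEdel. The excess of the bin toward Sμ over the bin toward Cα was 30.5 points larger in i3CBEc and 37.6 points larger in i3CBEc-3CBEdel. Both bins were chosen by their inversional joins, most of them from the insertion groups. As a ratio of the 2 bins the groups overlapped, at 0 to 3.74 in NCdel, 3.13 to 3.58 in i3CBEc and 3.59 to 8.35 in i3CBEc-3CBEdel, and no difference passed (adjusted p = 0.1 and 0.0714 against NCdel, exact permutation test). Sequencing run cannot be told apart from genotype in these comparisons.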

How the results depend on the processing

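Of the results past the threshold, the Iadel deficit, the position shift over 12 libraries and the lower inversional share of Sα against the Sμ unit and other chromosomes stayed past it without each library in turn, and the 4 differences of an insertion group from NCdel in share stayed past it without each NCdel library. Without any 1 library of an insertion group these 4 were not past it, since 2 against 6 libraries reach no lower unadjusted p than 0.0357. Their ranges were 6.0 to 6.64 and 6.65 to 8.54 points of all junctions for i3CBEc and i3CBEc-3CBEdel, and 15.8 to 16.9 and 16.7 to 17.6 points of Sα joins. With the mean of each run as 1 value, chosen after seeing the data, they were 6.22, 7.25, 16.1 and 16.9 points, not past the threshold for want of values (adjusted p 0.3 to 0.5, exact permutation test). Within run 490 Iadel minus NCdel was -0.795 points. With NCdel alone the position shift was 248 bases, not past the threshold, which left 0 of 11 measures past it (2 with an unadjusted exact permutation p under 0.05), and the difference in joins with 4 or more shared bases was -0.71 points. With prey of at least 50 bases 2 of 11 passed, as inserted joins then differed by -6.73 points, and i3CBEc-3CBEdel minus i3CBEc in inserted joins turned to 1.46 points. Other differences that turned were never past the threshold. Iadel-i3CBEc minus Iadel was -0.0108 points in the core, and -0.0108 to 0.0526 leaving out libraries. With IgH junctions as denominator, i3CBEc-3CBEdel minus i3CBEc was -0.874 points. Leaving out libraries, the bait end differed by -1.55 to 0.364 bases, i3CBEc-3CBEdel differed from NCdel in mean microhomology by -0.215 to 0.112 bases, and from i3CBEc in inserted joins by -2.97 to 2.17 points. Among the added comparisons, i3CBEc-3CBEdel minus i3CBEc ran from -0.241 to 7.77 points in the Sμ share, -6.43 to 0.594 in Sα minus Sμ, -0.31 to 0.045 in their log2 ratio and -0.923 to 8.85 in the deletional share, and i3CBEc minus NCdel from -2.27 to 0.154 points on other chromosomes. Apart from Sα minus Sμ, the added calls against NCdel stayed past the threshold without any 1 NCdel library, but each was lost without any 1 library of the insertion group compared (adjusted p 0.0536 to 0.0779, exact permutation test). For the measures whose alternatives are not given by value, 46 of 338 alternative values changed sign and 0 passed.

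Replicate numbers are shared between groups, and whether they pair libraries is not known. Correlations of same-numbered libraries over the 1-kb bins of Sα were mixed, from -0.63 to 0.86, and do not settle it. With replicate number as a block, which allows few exchanges, only numbers found in both groups enter. Against i3CBEc and i3CBEc-3CBEdel this leaves NCdel libraries 1 to 3, all of run 490. Their mean inversional share of all junctions was 0.795%, against 1.13% over 6 libraries. The differences from NCdel were then -1.11, 6.62 and 7.64 points of all junctions for Iadel, i3CBEc and i3CBEc-3CBEdel. In points of Sα joins they were 16.9 and 17.7 for the 2 insertion groups. None was past the threshold (adjusted p 0.188 to 0.375, exact permutation test). Mean microhomology of i3CBEc-3CBEdel minus NCdel was 0.183 bases.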
